A study of Homo sapiens with 238 samples.

Results

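Deletion of HS3 alone was compared with the unedited line in 8 poly(A) RNA-seq libraries of K562, a human erythroleukemia cell line that carries the BCR-ABL1 fusion and makes embryonic and fetal globins. The libraries were taken by their labels, 4 of WT-HS3Δ (cell type K562 bWT HS3del) and 4 of βWT (cell type K562 bWT), out of 62 RNA-seq libraries and 238 samples of all assays. βWT carries neither edit. WT-HS3Δ carries a CRISPR deletion of HS3, an enhancer of the β-globin locus, and keeps the unmutated G-quadruplex (G4) sequence of the neighbouring enhancer HS2. Both were grown in the same medium with no treatment. WT-HS3Δ is a single edited line, so an effect of the deletion and a trait of that line cannot be told apart. The titles number the libraries of a line with the prefix B, but do not say whether they are separate cultures. The p-values therefore measure the spread between libraries, which may be technical. A second line with HS3 deleted, βMut-HS3Δ (3 libraries), carries in addition the mutated HS2 G4. Its deletion is a separate allele whose breakpoints, in the study's sequencing traces, differ by a few bases from those of WT-HS3Δ. It was compared with its own parent βMut1 (4 libraries), so that this pair shares no library with the first. βMut2, a second clone with the mutated HS2 G4 (4 libraries), entered the fit only to estimate the spread.

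The β-globin genes lie in the order of their use in development, the embryonic gene HBE1 first, then the fetal genes HBG1 and HBG2, and last the adult genes HBD and HBB. Upstream of HBE1 lies the locus control region, a row of DNase I hypersensitive sites that act together on whichever gene is open, and HS2 and HS3 are its strongest enhancers. Their cores bind erythroid factors such as GATA1 and NF-E2 and form chromatin loops to the active globin promoter. The α-like genes HBZ, HBA1 and HBA2 lie on another chromosome under a separate enhancer, HS-40.

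HS3 was removed with 4 guides and a Cas9 nickase, which cuts 1 strand per guide, so that guides work in pairs on opposite strands. The guides are shown because they fix where the deletion lies. Matched here to hg38, each 20-base target occurs once on chromosome 11. They are written 5′ to 3′ in lower case with the PAM, the 3 bases next to the target in hg38, in capitals.
Guide 1, chr11:5284562-5284581, plus strand: gatgatgatcctgaaaacatAGG
Guide 3, chr11:5284602-5284621, minus strand: tcccctatacccccagctagGGG
Guide 4, chr11:5285111-5285130, minus strand: cctaaggtcggacatgtcagAGG
Guide 2, chr11:5285145-5285164, plus strand: ttctgagctcagtcttgtcaTGG
The outer guides span 603 bases and the inner ones leave 489 bases between them, with a GC content of 53.0%. The nearest guide lies 14617 bases upstream of the start of the canonical HBE1 transcript. No annotated exon overlaps the interval, but 3 long minus-strand gene models cross it in an intron: HBE1 (5268345 to 5505652), HBG2 (5253188 to 5505605) and an unnamed protein-coding gene, ENSG00000239920 (5254392 to 5678434).

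Between the inner guides, the 300-base stretch with the most letter matches to GATA and NF-E2 motifs is shown, as the part of the deleted interval richest in the motifs of the erythroid factors. Motifs are in capitals: GATA was searched on both strands with the letters AGATAA, with the variant AGATAG, with the form TGATAA or with the last form TGATAG, and NF-E2 with the letters TGACTCA, which read TGAGTCA on the other strand.
HS3, chr11:5284622-5284921, plus strand: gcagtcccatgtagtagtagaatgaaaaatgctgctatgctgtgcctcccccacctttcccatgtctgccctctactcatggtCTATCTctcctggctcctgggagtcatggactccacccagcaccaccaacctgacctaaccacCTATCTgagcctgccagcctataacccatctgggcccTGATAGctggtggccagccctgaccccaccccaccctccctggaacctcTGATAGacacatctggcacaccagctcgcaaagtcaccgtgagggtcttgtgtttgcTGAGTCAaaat
It holds 4 GATA matches and 1 NF-E2 match, none overlapping another. Of 35116 RefSeq promoters of the same length (GRCh38.p14), 25.0% hold a GATA match and 4.9% an NF-E2 match, and 26 promoters (0.074%) hold as many matches in all. This stretch was picked for its matches, and a match is read from the letters alone.

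The libraries held 27106608 to 31456233 counts in βWT and 33832959 to 38780949 in WT-HS3Δ. One library stood apart: βWT replicate 1 differed from the other 3 βWT libraries by a chi-square per gene of 29.9 to 47.7, against 2.66 to 4.07 among those 3, while WT-HS3Δ pairs ran from 3.69 to 15.6. On the first principal component (60.4% of the variance over the 19 libraries), WT-HS3Δ (83.3 to 88.0) and βMut-HS3Δ (64.2 to 78.2) stood together, away from βWT, βMut1 and βMut2 (-76.7 to -8.81). Log2 changes also rose with the GC content of the transcript, from a median of -0.33 in the tenth of genes with the lowest GC to 0.29 in the tenth with the highest, and the part of this trend in single results was not tested beyond the GC-adjusted values given below. Of the genes that mark this line, GATA1 stood at 254 ± 13.4 CPM (counts scaled to library size, SD, n = 4) in βWT and 313 ± 13.1 in WT-HS3Δ, and GYPC (glycophorin C) at 228 ± 8.15 and 193 ± 10.9. ABL1 and BCR were found in every library. Among markers of other cells, the summed level of 18 granulocyte and monocyte genes went from 69.2 to 82.9 CPM in βWT to 15.5 to 18.5 CPM in WT-HS3Δ, with CTSG and S100A8 at 0 throughout.

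HBE1, the embryonic ε-globin and the gene nearest downstream of HS3, was 4.12-fold lower in WT-HS3Δ. Its level was 47.2, 46.9, 48.0 and 50.2 CPM in the 4 βWT libraries and 10.3, 12.6, 12.2 and 11.6 CPM in the 4 WT-HS3Δ libraries. Every WT-HS3Δ library lay below every βWT library. The log2 fold change was -2.04 (SE 0.12, adjusted p = 1.9e-11, edgeR). An exact permutation test of log2 CPM gave the smallest p that 4 against 4 libraries allow, 0.0286 two-sided (0.0349 adjusted over 11 globin-cluster genes). With an adjustment for transcript GC the log2 change was -2.01, and without βWT replicate 1 it was -2.05. A gene was counted as called when its adjusted p was under 0.05 and its log2 change larger than 0.5 in size. By this rule 8807 of 17535 genes tested (50.2%) were called, 22.8% higher and 27.5% lower, and 69.3% passed on the adjusted p alone. Of the genes tested, 939 (5.36%, HBE1 included) had a log2 change at least as negative as that of HBE1.

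The fetal γ-globin genes fell as well, by less. HBG1 stood at 376, 439, 461 and 426 CPM in βWT and at 142, 167, 173 and 147 CPM in WT-HS3Δ. The lowest βWT library was βWT replicate 1, still above every WT-HS3Δ library. Its log2 fold change was -1.44 (SE 0.13, adjusted p = 9.9e-09). HBG2 went from 343 to 409 CPM in βWT to 142 to 172 CPM in WT-HS3Δ, a log2 fold change of -1.30 (SE 0.12, adjusted p = 8.7e-09). HBG1 and HBG2 are near-copies: of the 51-base windows in HBG2 transcripts, 48.7% occur in HBG1 transcripts, and 26.9% the other way, so that reads of one can be counted for the other. HBE1 shares no 51-base window with HBG1.

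The adult genes of the cluster were low in both lines. HBD, the δ-globin gene, measured 10.1 to 14.8 CPM in βWT and 8.59 to 9.48 CPM in WT-HS3Δ. These levels did not overlap, but the log2 fold change of -0.49 (SE 0.16, adjusted p = 0.0118) fell just short of the fold threshold, which it passed without βWT replicate 1 (-0.59). HBB, the adult β-globin gene, measured 1.22, 2.02, 2.36 and 2.15 CPM in βWT and 1.08, 1.24, 1.6 and 0.968 CPM in WT-HS3Δ. The ranges overlapped through βWT replicate 1, the edgeR call was a fall of 0.67 on the log2 scale (SE 0.24, adjusted p = 0.021), and the exact permutation test gave p = 0.0857 (0.0943 adjusted). The edgeR call was lost without βWT replicate 3 (log2 -0.56, adjusted p = 0.073), WT-HS3Δ replicate 1 (-0.61, 0.056) or WT-HS3Δ replicate 4 (-0.57, 0.064). BGLT3, a noncoding RNA between the γ- and δ-globin genes, fell from 0.757 ± 0.133 to 0.309 ± 0.0675 CPM (log2 -1.30, SE 0.44, adjusted p = 0.0127). In all, 5 of 6 tested β-like genes, HBB included, were called lower and 0 higher, with a median log2 change of -1.30 against -0.03 over all genes tested. The pseudogene HBBP1 (14 counts in βWT and 3 in WT-HS3Δ over 4 libraries each) was below the filter.

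**Figure D1:**
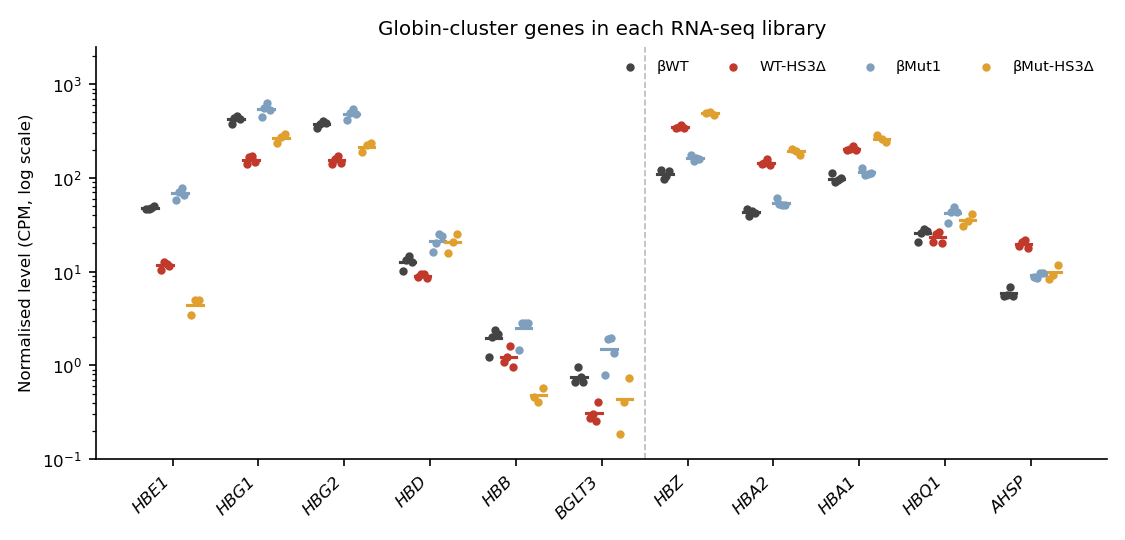
Normalised level in CPM (y axis, log scale) of the β-like genes (left of the dashed line) and the α-like genes and AHSP (right). Each point is a library of βWT, WT-HS3Δ, βMut1 or βMut-HS3Δ and each bar the mean of a line. WT-HS3Δ lies below βWT for HBE1, HBG1 and HBG2 and above it for HBZ, HBA2, HBA1 and AHSP, and HBE1 is lowest in βMut-HS3Δ, at 3.42 to 4.98 CPM.

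Levels of different globin genes are comparable only per length, so counts were divided by the joined length of all annotated exons of a gene. They are given as percentages of the sum over HBE1, HBG1, HBG2, HBD and HBB. This length is not that of 1 transcript: it is 1467 bases for HBG1 and 841 for its near-copy HBG2. The larger share of HBG2 rests on it, since HBG1 had the higher mean level in βWT (425 against 379 CPM). The shares serve to compare lines, not genes within a line. HBE1 made up 6.79, 6.03, 5.78 and 6.41% of this sum in the βWT libraries and 3.77, 4.04, 3.69 and 4.12% in the WT-HS3Δ libraries. Its mean share went from 6.25% ± 0.444 to 3.90% ± 0.205 (SD, n = 4, exact permutation p = 0.0286, 0.0286 adjusted over 5 genes). The share of HBG2 moved from 56.1% ± 0.475 to 58.9% ± 0.581 and that of HBG1 from 36.1% ± 0.678 to 34.3% ± 0.440. HBD rose in share from 1.37% ± 0.119 to 2.54% ± 0.135, and HBB from 0.183% ± 0.0366 to 0.298% ± 0.0425. No library of one line overlapped the other line for any of the 5 shares. HBE1 RNA therefore fell by more than the sum of the cluster, γ-globin RNA remained the bulk of it, and the small share of the adult genes was larger in WT-HS3Δ while their levels were not. The summed level of the 5 genes was 777 to 935 CPM in βWT and 304 to 368 CPM in WT-HS3Δ.

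The α-like genes moved the other way. HBZ, the embryonic ζ-globin gene, measured 121, 97.3, 106 and 118 CPM in βWT and 344, 349.7, 369.8 and 341 CPM in WT-HS3Δ. No library overlapped, and the log2 fold change was 1.67 (SE 0.07, adjusted p = 1.3e-13). HBA2 went from 39.1 to 46.7 CPM to 136 to 158 CPM (log2 1.74, SE 0.07, adjusted p = 1.9e-13) and HBA1 from 89.7 to 112 CPM to 197 to 220.3 CPM (log2 1.06, SE 0.08, adjusted p = 3.2e-10). The transcripts of HBA1 and HBA2 share 80.6 and 81.3% of their 51-base windows, so their counts cannot be fully separated. HBZ, HBA1 and HBA2 have GC contents of 64.8 to 67.3%, at the end of the scale where log2 changes were highest, and with the GC adjustment their log2 changes were 1.42, 0.79 and 1.47, each still called. They lie in the first 10 Mb of chromosome 16, which had a median log2 change of 0.44 over 183 genes (80 called higher and 25 lower). With the GC adjustment that median was 0.28. The part of the region in the rise of the α-like genes was not tested. HBQ1, the θ-globin gene, measured 20.6 to 28.6 CPM in βWT and 20.4 to 26.7 CPM in WT-HS3Δ and was not called (log2 -0.15, SE 0.15, adjusted p = 0.413). AHSP, which holds free α-globin chains, rose from 5.5 to 6.87 CPM to 18.0 to 22.0 CPM (log2 1.75, SE 0.11, adjusted p = 3.6e-11). The summed α-like list, AHSP included, stood at 258 to 305 CPM in βWT and 711 to 796 CPM in WT-HS3Δ. HBM (0 counts in βWT and 5 in WT-HS3Δ) and HBZP1 (1 and 28) were below the filter.

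Genes around the β-globin cluster fell with it. Of 41 listed neighbours, 21 were tested, and 11 were called lower and 0 higher, a share of 52.4% lower against 27.5% over all genes, with a median log2 change of -0.61. Of the 20 names that were not tested most were olfactory receptor genes, and 1 was an older symbol of a tested neighbour. TRIM6, an E3 ubiquitin ligase gene 311.2 kb upstream of HS3, measured 20.1, 23.4, 22.9 and 21.4 CPM in βWT and 2.46, 2.42, 3.31 and 2.69 CPM in WT-HS3Δ. That is 8.06-fold lower (log2 -3.01, SE 0.10, adjusted p = 6.7e-15), with no overlap. TRIM5, the restriction factor gene next to it, fell from 36.9 to 40.6 CPM to 17 to 18.3 CPM (log2 -1.15, SE 0.06).

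OR51B4 and OR51B5, olfactory receptor genes just upstream of the locus control region and the tested genes nearest to HS3 on that side, fell from 40.1 to 42.7 CPM to 19.6 to 23.1 CPM (log2 -0.97, SE 0.07) and from 125 to 144 CPM to 43.4 to 50.0 CPM (log2 -1.56, SE 0.08). Both lie within the span of the long HBE1 and HBG2 gene models on the same strand, so reads there can belong to overlapping genes. On the other side the nearest tested gene that does not span HS3 was HBG1. Farther out, DNHD1, a dynein heavy chain domain gene, fell from 9.48 to 11.6 CPM to 2.13 to 2.90 CPM (log2 -2.09, SE 0.18) and STIM1, the calcium sensor of the endoplasmic reticulum, from 133 to 193 CPM to 69.1 to 77.2 CPM (log2 -1.02, SE 0.13). The STIM1 value of 193 CPM was that of βWT replicate 1, and without that library the log2 change was -0.88. ILK (integrin-linked kinase, log2 -0.89), TRIM68 (-0.94), TPP1 (a lysosomal peptidase, -0.61), HPX (hemopexin, -1.48) and APBB1 (-0.82) were the others called lower. HPX and APBB1 had low levels throughout, with means of 0.438 and 0.848 CPM in βWT and 0.153 and 0.476 CPM in WT-HS3Δ. TPP1 missed the fold threshold without βWT replicate 1 (-0.48).

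Over all genes on chromosome 11 within 0.5 Mb of the middle of HS3, 13 of 15 tested were called lower and 0 higher, with a median log2 change of -1.30. These 15 include the tested β-like genes and genes inside the span of the long HBE1 and HBG2 models. From 0.5 to 2 Mb away, 12 of 33 were lower and 1 higher, with a median of -0.22. With the globin genes left out, 20 of 42 genes within 2 Mb were lower and 1 higher, with a median of -0.39, against 27.5% lower over all genes tested. The fall was therefore not limited to the globin genes, nor shared by all neighbours. The first 10 Mb of chromosome 11 had a median log2 change of -0.46 over 132 genes (63 called lower and 11 higher), the 11th lowest of the 282 windows of 10 Mb that held at least 20 tested genes, and with the GC adjustment -0.42, the 2nd lowest. The next window, from 10 to 20 Mb, had a median of -0.49 over 58 genes. Chromosome 11 as a whole stood at -0.08, and chromosome medians ran from -0.24 (chromosome 18) to 0.26 (chromosome 16). The highest windows of all were also on chromosome 16, with medians of 0.61 from 80 to 90 Mb and 0.53 from 60 to 70 Mb. They hold ZFPM1 and CTCF, which are named below.

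**Figure D2:**
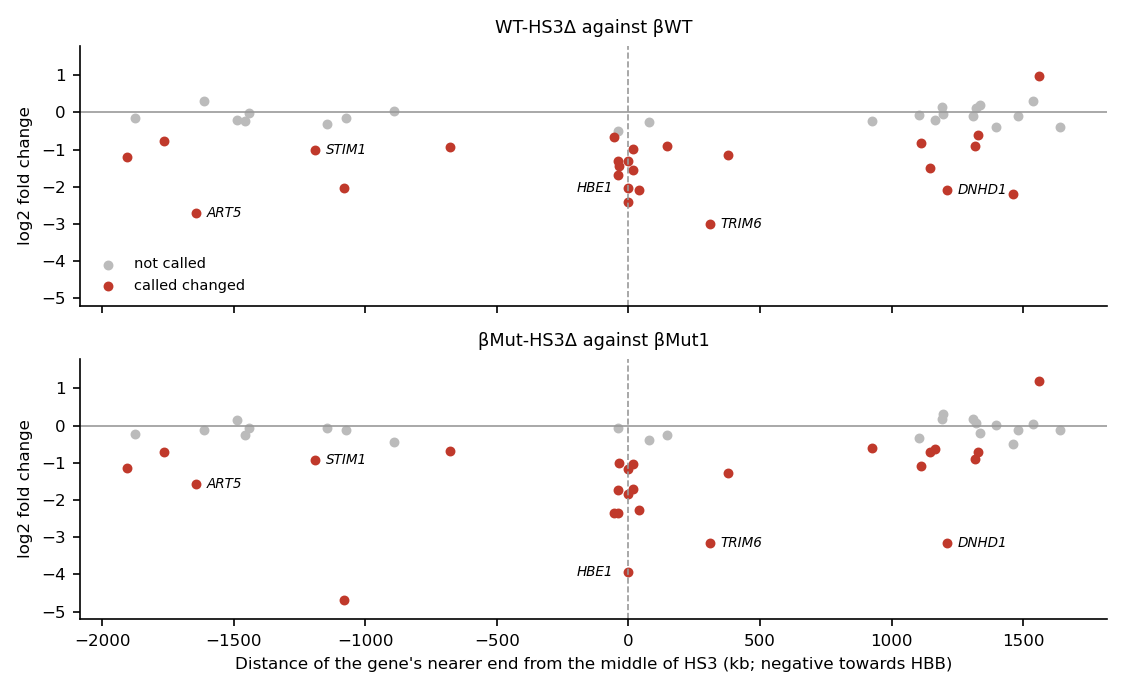
Log2 fold change (y axis) of each tested gene within 2 Mb of HS3 against the distance of its nearer end from the middle of HS3 in kb (x axis, genes that span HS3 at 0). The upper panel plots WT-HS3Δ against βWT and the lower panel βMut-HS3Δ against βMut1, with called genes in red. Within 0.5 Mb 13 of 15 genes, globin genes included, are called lower in the upper panel, and TRIM6 lies near -3 in both.

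Beyond the β-globin locus the 2 lines differed widely. Of the 8807 genes called, 3990 were higher and 4817 lower in WT-HS3Δ, 4176 with a log2 change beyond 1 and 1127 beyond 2, of which 974 were lower and 153 higher. The levels of the 4 and 4 libraries did not overlap for 64.5% of the genes tested. The counts of each gene list are read against these shares, 22.8% higher and 27.5% lower. With an adjustment for GC, 49.8% of genes were called, and without βWT replicate 1 51.3%.

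The 10 largest falls, among called protein-coding genes with at least 5 CPM and no overlap, were of genes that were all but silent in WT-HS3Δ. CA9, a hypoxia-induced carbonic anhydrase, had 783 counts in βWT and 1 in WT-HS3Δ, a level of 0.112% of βWT (95% exact interval 0.00284 to 0.627%, counting error only). USP44 (985 and 4 counts) and POPDC3 (756 and 4 counts) stood at 0.357 and 0.465% of βWT. ETS1, an ETS family transcription factor, measured 10.5 to 14.6 CPM in βWT and 0.0303 to 0.138 CPM in WT-HS3Δ. S100P, a calcium-binding protein, went from 45.2 to 67.2 CPM to 0.359 to 0.545 CPM. ARHGAP15 (log2 -7.13), CYFIP2 (-6.84), TM6SF1 (-6.81), GRID1 (-6.48) and PPFIA4 (-6.35) completed the group.

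The 10 largest rises, by the same rule, started from βWT levels of 0.218 to 8.87 CPM. PAK6, a p21-activated kinase, measured 0.222, 0.245, 0.249 and 0.282 CPM in βWT and 16.1, 13.1, 12.3 and 15.1 CPM in WT-HS3Δ (log2 5.81, SE 0.20). CD36, the fatty acid scavenger receptor also found on erythroid progenitors, went from 0.435 to 0.599 CPM to 13.5 to 14.8 CPM (log2 4.76, SE 0.22). NEFH, a neurofilament subunit, rose from 5.88 to 8.87 CPM to 137 to 163 CPM (log2 4.46, SE 0.22). SDC1 (syndecan 1, log2 4.44), DDN (3.85), GALNTL6 (3.37), PRR19 (3.1), KCNH4 (a potassium channel, 3.04), TP73 (a p53 family member, 3.03) and BSN (2.96) made up the rest.

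Of 25 tested erythroid transcription factors 11 were called higher and 4 lower, with a median log2 change of 0.30. KLF1, the erythroid Krüppel-like factor, measured 134, 114, 119 and 126 CPM in βWT and 248, 244, 258 and 233 CPM in WT-HS3Δ. Every WT-HS3Δ library lay above every βWT library, and the log2 fold change was 1.00 (SE 0.08, adjusted p = 4.2e-09). ZFPM1, which encodes the GATA1 cofactor FOG1, rose from 13.3 to 20.9 CPM to 76.6 to 97.8 CPM (log2 2.47, SE 0.15) and LMO2, a bridging subunit of the GATA1 and TAL1 complex, from 74.4 to 81.9 CPM to 157 to 166 CPM (log2 1.05, SE 0.09). TAL1 passed the threshold narrowly (log2 0.54, SE 0.09), and GATA1 did not (0.30, SE 0.08). SPI1, the myeloid factor PU.1, fell from 20.2 to 28.1 CPM to 3.84 to 4.75 CPM (log2 -2.49, SE 0.12). With the GC adjustment the list counted 10 higher and 3 lower, with a median of 0.13.

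Among 32 tested regulators of globin switching 15 were called higher and 5 lower, with a median log2 change of 0.42. ZBTB7A, a repressor of the γ-globin genes also known as LRF, measured 53.1, 37.5, 36.2 and 38.2 CPM in βWT and 119, 103, 118 and 114 CPM in WT-HS3Δ (log2 1.46, SE 0.12, adjusted p = 4.1e-09). Also called higher were MBD3 (log2 1.26), GATAD2A (1.12), CHD4 (0.99) and MBD2 (0.74), known as subunits of the NuRD repressor complex, the orphan receptor NR2F2 (1.26), the histone methyltransferases EHMT2 (0.90) and EHMT1 (0.76), the factors NFIX (1.37), NFIA (0.64) and HIC2 (0.91) and the deubiquitinase BAP1 (0.97). LIN28B and IGF2BP1, fetal RNA-binding proteins, were higher by 0.77 and 0.78. KLF10 (log2 -1.13), ATF4 (-0.92), EIF2AK1, the heme-regulated kinase HRI (-0.55), LIN28A (-1.17) and NR2C2 (-0.54) fell, with EIF2AK1 and NR2C2 at -0.46 and -0.42 with the GC adjustment, under the fold threshold. For all 15 that rose βWT replicate 1 was the highest βWT library, such as HIC2 at 295 CPM against 174 to 184 CPM in the other 3, and without it the count was 16 higher and 4 lower.

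Of 18 tested receptors and signalling genes of erythroid cells 5 were called higher and 7 lower, with a median of -0.19. TFRC, the transferrin receptor, measured 603, 610.0, 641 and 613 CPM in βWT and 1193, 1163, 1065 and 1284 CPM in WT-HS3Δ (log2 0.93, SE 0.07, adjusted p = 6.9e-10). PIM1, a kinase induced by STAT5, measured 1395, 1191, 1188 and 1235 CPM in βWT and 363, 341, 331 and 350.2 CPM in WT-HS3Δ (log2 -1.85, SE 0.08, adjusted p = 4.5e-13). The other genes of the list called lower, KIT aside, were STAT5B, lower by 1.01, SOCS2 by 0.60, SOCS1 by 0.62, CISH by 0.53 and JAK2 by 0.58 on the log2 scale, although JAK2 was at -0.22 with the GC adjustment and CISH at -0.45 without βWT replicate 1. The erythropoietin receptor EPOR (log2 0.58), BCR (0.83), ABL1 (0.56) and the inhibitor SPRY2 (0.63) were higher, and the stem cell factor receptor KIT lower (-0.81, at 2.25 to 2.73 CPM in βWT). The ABL1 libraries overlapped, with 325 CPM in βWT replicate 1 against 296 to 377 CPM in WT-HS3Δ, and EPOR and ABL1 were at 0.45 and 0.46 with the GC adjustment, under the fold threshold.

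Red cell surface and membrane skeleton genes moved both ways, 14 of 35 higher and 9 lower, with a median of 0.29. With the GC adjustment 16 were higher and 5 lower, and on the mutant background 17 and 2. AQP3, a water and glycerol channel, rose from 14.9 to 18.5 CPM to 89.0 to 94.3 CPM (log2 2.42, SE 0.09) and ACHE, which carries the Yt blood group, from 2.73 to 3.74 CPM to 14.8 to 16.5 CPM (log2 2.24, SE 0.10). ADD3, the γ-adducin of the membrane skeleton, fell from 149 to 167 CPM to 59.4 to 68.3 CPM (log2 -1.33, SE 0.06). Of 17 genes of heme synthesis 14 were not called, with a median of -0.01, and CPOX (coproporphyrinogen oxidase, -1.15) and the mitochondrial iron carrier SLC25A37 (-0.80) were lower and the heme exporter FLVCR1 (0.76) higher. Of 18 iron genes 3 were higher and 2 lower, among them STEAP3, the ferrireductase of the transferrin cycle (log2 1.35), and the heme oxygenase HMOX2 (1.02) as well as BLVRA, a biliverdin reductase (-0.70). The share called was 65.7% for the red cell surface list, 17.6% for heme synthesis and 27.8% for iron genes, against 50.2% over all genes tested.

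Genes of amino acid and unfolded protein stress, many of them known targets of the factor ATF4, had the lowest median of the 26 lists with HS3 deleted alone, though with the GC adjustment the granulocyte and monocyte list was lower (-1.86 against -1.76). Of 26 tested, 22 were called lower (84.6%) and 1 higher, with a median log2 change of -1.78. DDIT4, an inhibitor of mTORC1, measured 1318, 1303, 1369 and 1378 CPM in βWT and 109, 110.1, 106 and 101 CPM in WT-HS3Δ. The level was 12.6-fold lower, with no overlap (log2 -3.65, SE 0.06, adjusted p = 6.7e-19). ATF3, a stress-induced transcription factor, fell from 104 to 110.3 CPM to 8.96 to 10.3 CPM (log2 -3.47, SE 0.08), CHAC1, which breaks down glutathione, from 67.8 to 76.0 CPM to 5.96 to 7.59 CPM (log2 -3.46, SE 0.11) and SLC7A11, the cystine transporter, from 174 to 194 CPM to 19.9 to 27 CPM (log2 -2.92, SE 0.08). ATF4 itself, which stands also among the switching regulators, went from 458 to 483 CPM to 241 to 267 CPM. The summed level of the list was 9152 to 9740.1 CPM in βWT and 3822 to 4006 CPM in WT-HS3Δ.

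Hypoxia and glycolysis genes fell in part, 13 of 26 lower and 1 higher, with a median of -0.51. VEGFA, the angiogenic growth factor, measured 493, 450.0, 453 and 433 CPM in βWT and 77.1, 72.2, 72.0 and 77.6 CPM in WT-HS3Δ (log2 -2.61, SE 0.10, adjusted p = 9.6e-14). ALDOC (aldolase C, -2.31), P4HA1 (a collagen prolyl hydroxylase, -2.34) and NDRG1 (-3.24) fell likewise, and the 12 that were not called were glycolytic enzymes. Of 17 DNA damage and apoptosis genes 7 were lower and 3 higher: TNFRSF10B, a TRAIL receptor, went from 111 to 130.1 CPM to 16.0 to 16.9 CPM (log2 -2.85, SE 0.07), and the BH3-only genes BBC3 (-1.70) and PMAIP1 (-1.94) and the sestrin SESN2 (-1.91) fell. SESN2 is in the stress list too. The 3 tested metallothionein genes, MT2A (log2 -1.56), MT1X (-1.35) and MT1G (-5.14, 0 to 0.0828 CPM in WT-HS3Δ), were all lower. Of 25 genes of cholesterol synthesis 7 were lower and 3 higher, with STARD4 (-2.26), MSMO1 (-1.89) and FDFT1 (-1.02) among the lower.

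**Figure D3:**
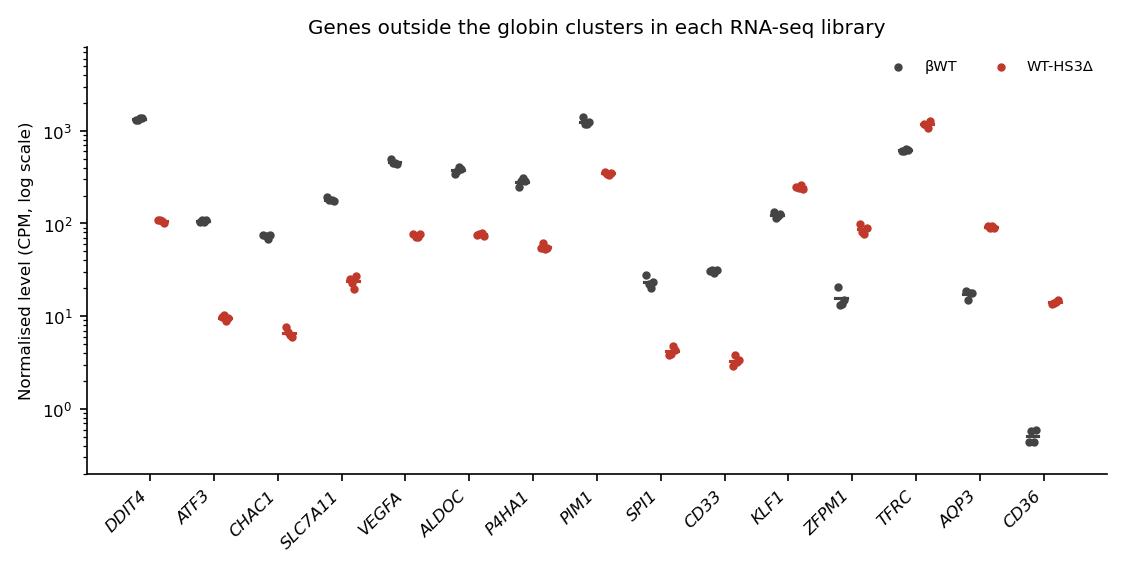
Normalised level in CPM (y axis, log scale) of 15 genes outside the globin clusters in each library of βWT and WT-HS3Δ, with bars for the means. Stress and hypoxia genes from DDIT4 to P4HA1, PIM1, SPI1 and CD33 lie lower in WT-HS3Δ, and KLF1, ZFPM1, TFRC, AQP3 and CD36 higher, with no overlap between lines.

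Markers of other blood cells mostly fell. Of 18 granulocyte and monocyte markers 9 were tested, and 8 were called lower and 0 higher (median -1.58). CD33, a myeloid surface lectin, went from 29.5 to 31.9 CPM to 2.90 to 3.82 CPM (log2 -3.21, SE 0.10) and LYZ, lysozyme, from 20.8 to 27.1 CPM to 3.87 to 4.94 CPM (log2 -2.46, SE 0.15), and CSF3R and CEBPA, at no more than 1.04 and 1.07 CPM in βWT, were also lower. Of 16 megakaryocyte markers 5 were tested and 4 called lower, among them ITGA2B, integrin αIIb (15.4 to 20.8 CPM to 1.27 to 1.69 CPM, log2 -3.61). Of 15 lymphoid markers 4 were tested, 3 lower and 1 higher: PTPRC, the CD45 phosphatase, fell from 185 to 205 CPM to 60.6 to 73.7 CPM (log2 -1.56, SE 0.06), and CD3G, a T cell receptor subunit, rose from 2.46 ± 0.255 to 5.08 ± 0.117 CPM (log2 1.04, SE 0.09). Of 8 tested epithelial and fibroblast markers 6 were higher and 1 lower, with EPCAM (log2 0.62), KRT19 (0.58), KRT8 (0.52) and COL1A2 (1.81) among the higher. With the GC adjustment only 3 were higher and 1 lower, with KRT19 (0.36) and KRT8 (0.43) under the threshold. On the mutant background 3 were higher and 2 lower. In bulk libraries fewer cells of a kind and less RNA per cell cannot be told apart.

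Of 31 cell cycle genes 10 were higher and 4 lower (median 0.32): CCNE1, cyclin E1 (log2 1.29), CCND1, cyclin D1 (1.58), and the inhibitor CDKN2C (0.76) rose, and the inhibitor CDKN1C fell (-1.22). Without βWT replicate 1 this list counted 14 higher and 6 lower. RNA polymerase II subunits were higher for 6 of 13 and lower for 0, POLR2E by 0.96, POLR2F by 0.97, POLR2L by 0.85 and POLR2C by 0.82. Of 34 looping, cohesin and Mediator genes 8 were higher and 4 lower: the loop anchor CTCF rose from 57.3 to 84.0 CPM to 160.5 to 191 CPM (log2 1.41, SE 0.16) and MED24 by 1.15, while the cohesin subunit RAD21 fell by 0.78 (0.38 with the GC adjustment, below the threshold) and the Mediator kinase CDK19 by 1.46. Among 22 proteins that bind or unwind G4s 6 were higher, DHX9 (1.38), NCL (1.2) and MAZ (1.01) among them, and only PIF1 was lower (-1.75). With the GC adjustment the last 2 lists counted 12 and 11 higher. The cell cycle, polymerase, looping and G4-binding lists had 45.2, 46.2, 35.3 and 31.8% of members called. All of these shares lay below the 50.2% over all genes tested.

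Interferon-stimulated genes were split, 5 of 17 higher and 10 lower, with IFITM3 (log2 1.75) and ISG15 (1.5) up and STAT2 (-1.11) and IRF1 (-0.94) down. Of 17 cancer-testis antigens 5 were higher and 5 lower: MAGEA1 fell from 25.2 to 32.5 CPM to 1.27 to 2.12 CPM, and CTAG2 (-3.29), PAGE5 (-4.45) and MAGEA4 (-3.93) with it. Of 22 replication-dependent histones, whose transcripts are mostly not polyadenylated, 6 were higher and 3 lower, among them H1-5 (2.29) and H1-4 (0.99) against H2AC11 (-1.22) and H2BC21 (-0.63). Mitochondrially encoded genes were called lower for 2 of 13, MT-ND4 (-0.57) and MT-CYB (-0.51), and for 0 with the GC adjustment. The interferon, cancer-testis, histone and mitochondrial lists had 88.2, 58.8, 40.9 and 15.4% of members called, against 50.2% over all genes tested.

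**Figure D4:**
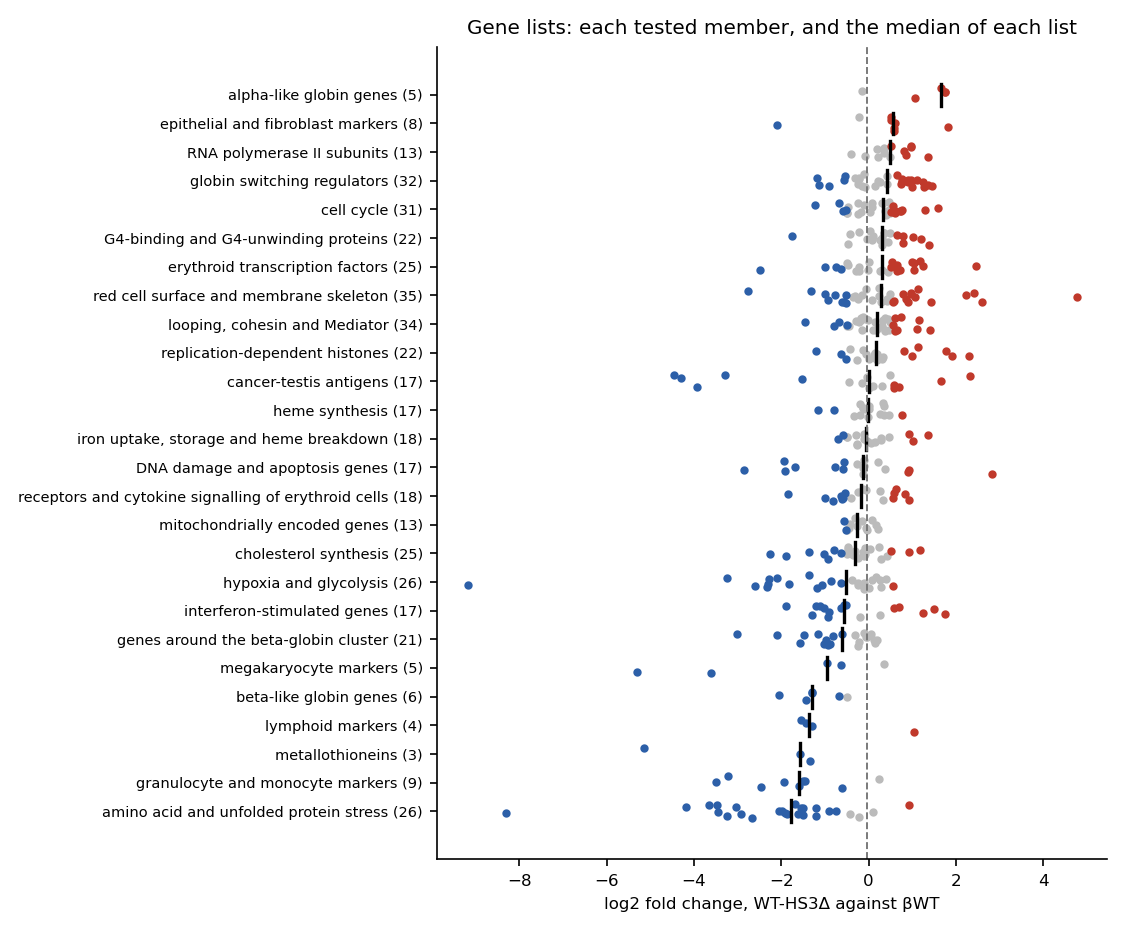
Log2 fold change of WT-HS3Δ against βWT (x axis) for each tested member of the 26 lists (rows, number tested in brackets), in red where called higher, blue where called lower and grey where not called. Black bars are list medians and the dashed line the median of all genes tested, -0.03. Without the GC adjustment, as plotted, the stress list has the lowest median (-1.78) and the α-like globin genes the highest (1.67).

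A separately made deletion of HS3 in the line with the mutated HS2 G4 gave a second measurement of these genes, with no library in common. βMut-HS3Δ against βMut1 called 9287 genes (53.0%), 23.1% higher and 29.8% lower. Of the WT-HS3Δ calls 6992 were called in the same direction there, 79.4% of the calls of the deletion alone and 75.3% of those on the mutant background, and 123 in the opposite direction. Across genes the log2 changes had a Pearson r of 0.816, a description over genes that are not independent. TMM factors were 0.9345 to 0.9799 in the 2 lines without HS3 and 0.9997 to 1.045 in the lines that keep it. A batch or handling shared by the 2 lines without HS3 cannot be told apart from the deletion in either comparison. DDIT4 (-4.56), ATF3 (-3.62), SLC7A11 (-3.03), VEGFA (-3.32), TRIM6 (-3.16), HBZ (1.59), HBA2 (1.82) and NEFH (4.59) had the same sign on the mutant background, although the differences of DDIT4 (-0.90) and VEGFA (-0.71) were themselves called. The stress list counted 24 lower and 1 higher on the mutant background, and the genes around the cluster 13 lower and 0 higher. Not every list was as alike. Hypoxia and glycolysis genes counted 10 lower and 4 higher there, with a median of -0.16, and 10 of the 26 differed between backgrounds. The 5 tested megakaryocyte markers counted 2 lower and 2 higher there.

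The test of the difference between the 2 backgrounds called 2115 genes (12.1%), 5.18% with a higher and 6.88% with a lower log2 change on the mutant background. HBE1 was one of them: it fell from 57.9 to 78.3 CPM in βMut1 to 3.42 to 4.98 CPM in βMut-HS3Δ (log2 -3.94, SE 0.15), a further -1.90 on the log2 scale (SE 0.18, adjusted p = 3.7e-07) beyond its fall in WT-HS3Δ. Its share of β-like globin RNA went from 6.86% ± 0.0898 to 0.993% ± 0.102 (n = 4 and n = 3). HBB differed in the same direction (-1.69, SE 0.40, adjusted p = 0.00594), and HBG1 (0.43, SE 0.19, adjusted p = 0.133) and HBG2 (0.14, SE 0.17, adjusted p = 0.648) did not pass. OR51B5 fell more in WT-HS3Δ (0.54) and OR51B4 less (-0.72). Each background with and without HS3 is represented by a single line. In these differences and those below, an effect of the HS2 G4 mutation and a trait of a line cannot be told apart.

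Of the 8807 genes called with HS3 deleted alone, 1432 (16.3%) differed between the backgrounds. AHSP rose in WT-HS3Δ but was not called on the mutant background, with 9.14 ± 0.578 CPM in βMut1 and 9.80 ± 1.83 in βMut-HS3Δ (difference -1.65, SE 0.16, adjusted p = 3.7e-07). USP44, near silence in WT-HS3Δ, stood at 4.95 to 5.52 CPM in βMut-HS3Δ against 8.0 to 9.78 CPM in βMut1, and MAGEA1 at 37.7 to 46.5 CPM against 33.7 to 39.1 CPM. POPDC3, ETS1 and GRID1 fell in both lines but by more in WT-HS3Δ, by 4.21, 2.58 and 3.52 on the log2 scale. PAK6 and CD36 rose in both and by more in WT-HS3Δ, by 2.32 and 2.04, and GALNTL6, which rose by 3.37 in WT-HS3Δ, was at -1.02 on the mutant background. IFITM3 (difference -1.44) rose in WT-HS3Δ and was at 0.30 on the mutant background, and CD3G rose by 1.04 in the first and fell by 0.86 in the second (difference -1.90).

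**Figure D5:**
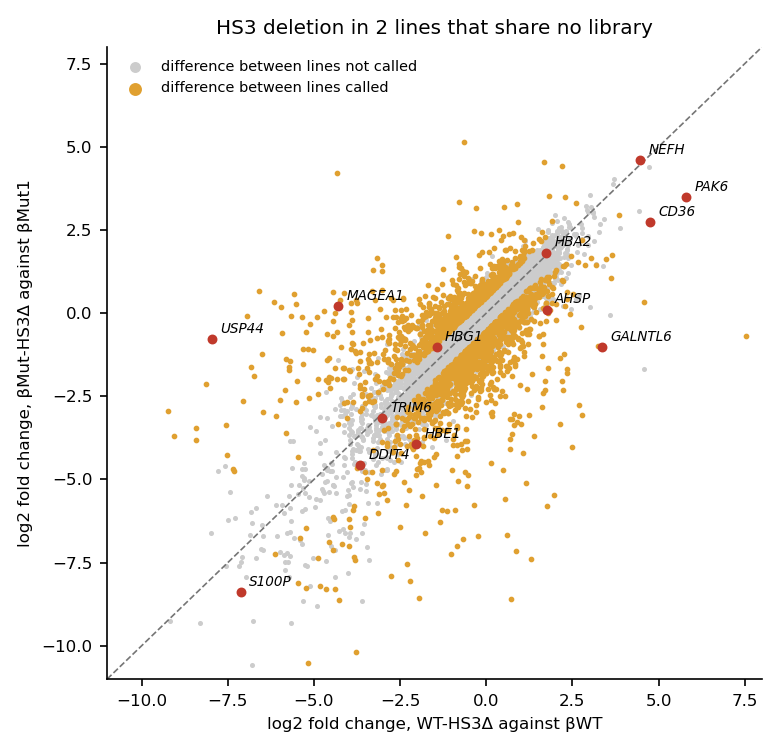
Log2 fold change of each tested gene with HS3 deleted alone (x axis, WT-HS3Δ against βWT) and on the HS2 G4 mutant background (y axis, βMut-HS3Δ against βMut1), with genes whose difference was called in orange and the dashed line at equal change. HBE1 lies below the line, at -2.04 and -3.94, and USP44 far above it, at -7.95 and -0.79.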

How the data were processed

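Poly(A)-selected RNA was sequenced in pairs of 51-base reads. What was deposited per library is a raw count for each gene. The authors, per the labels and the methods, trimmed reads with cutadapt, used bwa mem and SAMtools 1.15.1 for alignment to hg38 and sorting, deduplicated with Picard and counted with featureCounts. Its strand option and its treatment of multimapping reads are not given in the sources used here. Genes were named and placed with GENCODE 44 (62625 of 62696 IDs matched).

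The 19 libraries of the β series entered 1 fit in edgeR 4.0.16 (R 4.3.3), with TMM scaling, the quasi-likelihood test and Benjamini-Hochberg adjustment, for the 17535 genes with 10 or more counts on average. Adjusted p-values with no other test named come from this fit. A call needed an adjusted p under 0.05 together with a log2 change larger than 0.5 in size. Levels are CPM with TMM factors, errors are the SD over libraries or the SE of the fit. Globin levels, as log2(CPM + 0.5), and shares were compared by two-sided exact permutation tests over 70 arrangements. DESeq2 1.42.0, RLE scaling, no filter, the compared groups alone, left-out libraries, a replicate block and GC offsets were the alternatives. In simulated counts (17535 genes), 67, 67 and 66 genes were changed by 0.7, 1 and 2 on the log2 scale, up and down in equal number. The procedure found 71.6, 85.1 and 100% of them and called 4 unchanged genes. The simulation held far fewer changed genes than the data, no GC trend and no outlying library. It therefore does not give the rate of false calls in this comparison. The biological coefficient of variation was 11.4% and TMM factors ran from 0.935 to 1.05. Counting intervals cover counting error only.

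The members and the 26 gene lists were chosen with earlier results of these data known. Genes named are the tested globin genes, called genes around the cluster and those nearest to HS3, the 10 largest rises and 10 largest falls (protein-coding, called, a mean of at least 5 CPM in the higher line, no overlap), up to 4 called members of each list with the smallest adjusted p, all called members of the receptor and switching lists, and markers of K562. The 43 libraries of the α series and the other assays were not used here. Some results of named genes are not reported here.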

Additional observations from a re-analysis of the deposited data

Results flagged for a closer look

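One library of a line lay far from its other 3 in 24 of 304 groups of 4 libraries, where chance gives about 1 in 20. The value is the gap to the nearest library as a share of the whole range. Of the 24, 22 were in βWT, and in 20 of these the far library was βWT replicate 1. It was the highest βWT library for STIM1 (0.846), TPP1 (0.981), CA9 (0.904), NEFH (0.843), BSN (0.852), STEAP3 (0.85), ZBTB7A (0.882), CDK19 (0.91), MED24 (0.862), MAZ (0.841), ABL1 (0.867), BCR (0.844), NR2C2 (0.906), LIN28B (0.96), IGF2BP1 (0.837), MBD3 (0.906), EHMT2 (0.899) and HIC2 (0.917). It was the lowest for S100P (0.876) and RAD21 (0.884). The far library was βWT replicate 3 for AHSP, the highest (0.878), and for SOCS2, the lowest (0.844). In WT-HS3Δ replicate 4 was the only library with a CA9 count (1.0) and replicate 2 was the highest for MAGEA1 (0.908).

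The change on the mutant background minus the change with HS3 deleted alone was called by the edgeR test of the difference for 44 of the genes named. On the log2 scale it was below 0 for HBE1 (-1.90), HBB (-1.69), AHSP (-1.65), OR51B4 (-0.72), DNHD1 (-1.07), PAK6 (-2.32), CD36 (-2.04), DDN (-0.89), GALNTL6 (-4.39), TP73 (-1.36), ACHE (-0.82), ZFPM1 (-0.74), SOCS2 (-0.63), CD3G (-1.90), IFITM3 (-1.44), ISG15 (-0.78), DDIT4 (-0.90), CHAC1 (-1.52), VEGFA (-0.71), CDKN1C (-0.71), CCND1 (-0.93), TNFRSF10B (-0.59), BBC3 (-0.79), PAGE5 (-2.67) and SOCS1 (-1.16). It was above 0 for OR51B5 (0.54), USP44 (7.16), POPDC3 (4.21), ETS1 (2.58), GRID1 (3.52), CPOX (0.72), BLVRA (0.54), SPI1 (0.60), ITGA2B (0.78), CD33 (1.24), LYZ (1.77), COL1A2 (1.71), MSMO1 (0.67), P4HA1 (0.93), H1-5 (1.19), H1-4 (0.58), CTAG2 (4.58), MAGEA1 (4.51) and KIT (0.85). Each difference rests on 4, 4, 4 and 3 libraries of a single line each. The HS2 G4 background and traits of single lines therefore cannot be told apart.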

How the results depend on the processing

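The count of 8807 genes called stayed within 1.5 times under every alternative run, between 8561 and 9011 with 1 library of βWT or WT-HS3Δ left out, and at 10951 with no filter on low counts. HBE1 was called under each, with log2 changes from -2.09 to -1.98 with 1 library left out and -1.94 with no filter. The GC adjustment and the fit with no library numbered 1 of any line were chosen after seeing the data, and the latter gave 9113 genes and -1.93 for HBE1. The median of the first 10 Mb of chromosome 11 was -0.43 with DESeq2 and with RLE scaling, -0.37 with no filter, -0.42 with the GC adjustment, -0.39 with no library numbered 1, and -0.49 to -0.42 with 1 library left out. The cause was not tested.

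Of 2264 values of named genes under alternatives, 39, of 14 genes, no longer passed the thresholds, 6, all of HBD, now passed them, and 0 changed sign. The libraries were not treated as paired by number, since correlations of same-numbered βWT and WT-HS3Δ libraries were 0.313, 0.156, 0.221 and -0.121 and not every library correlated best with its own number. Replicate 1 was, however, the highest library of its line on the second principal component in all 5 lines. With the replicate block 8954 genes were called for HS3 deleted alone, 9306 on the mutant background and 2641 for the difference, and HBE1 was at -2.05. The differences between backgrounds numbered 1862 to 2459 with 1 library left out, the highest without βWT replicate 1, and 3096 with no library numbered 1 of any line, 929 higher and 2167 lower against 909 and 1206 with all libraries.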
